A study of Mus musculus with 4 samples.

Results

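The 9 genes described here encode the MCM helicase subunits Mcm2, Mcm3, Mcm4, Mcm5, Mcm6 and Mcm7, the helicase loader Cdc6, the helicase activator Cdc45 and Orc1, a subunit of the origin recognition complex. They were taken by name, through every probe set (a group of short probes that reads one transcript) that the platform annotation pairs with them. This gave 10 probe sets for the 9 genes, of 8220 genes read by the arrays. Their RNA was measured in mouse bone marrow cells on 4 expression arrays. The groups were dendritic cell progenitors amplified in vitro, the cells at day 7 and at day 10 of differentiation, and day 10 cells given tumour necrosis factor alpha (TNF) for 16 hours. The labels name no strain, genotype, age or number of mice or cultures for any group. There was 1 array per group, so no difference below has a replicate check, and no p-value is given.

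A cell copies each stretch of its genome once per division. In the G1 phase the origin recognition complex and Cdc6, together with Cdt1, load pairs of MCM rings onto DNA, which licenses the origin. In S phase Cdc45 and the GINS complex join the ring and turn it into the helicase that unwinds DNA ahead of the polymerases. E2F factors with their DP partners drive many of these genes when cells enter the cycle, and pocket proteins of the Rb family hold them down when cells leave it. Dendritic cell progenitors divide in culture, and differentiated dendritic cells divide little.

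Promoter sequences of 4 members are shown first: Mcm5 and Mcm2 were among the 7 members lower on the later arrays, and Mcm6 and Orc1 were read too dimly for that to be seen. RefSeq promoter windows (build GRCm38.p6, 250 bases before to 50 after the annotated start) were found for 8 of the 9 members, with 2 windows for Mcm7. The member without one was Mcm4. The annotated start of a window is not always the start of the RefSeq gene. It lay 3749 bases from the gene start for Orc1, 442 for Cdc6 and 41 for Mcm5. For the 2 Mcm7 windows it lay 228 and 845 bases away. The E2F motif was searched as the letters TTTGGCGC, TTTCGCGC, TTTGCCGC and TTTCCCGC on both strands. It was present in the windows of 6 of the 8 members, Mcm3, Mcm5, Mcm6, Mcm7, Cdc6 and Orc1. In all 32851 windows of the same length, 2.26% held it, and counted by gene 704 of 27025 did. The 170 bases upstream of the start are given below for Mcm6 and Mcm5, which hold overlapping matches on opposite strands, for Orc1, with 1 match, and for Mcm2, which has none. Each runs 5′ to 3′ along the gene's strand, and capitals mark the E2F matches.
Mcm6 (chr1:128359706-128359875, minus strand): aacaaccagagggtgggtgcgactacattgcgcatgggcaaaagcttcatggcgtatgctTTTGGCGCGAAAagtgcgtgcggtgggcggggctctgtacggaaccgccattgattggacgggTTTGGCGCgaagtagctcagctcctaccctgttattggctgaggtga
Mcm5 (chr8:75109339-75109508, plus strand): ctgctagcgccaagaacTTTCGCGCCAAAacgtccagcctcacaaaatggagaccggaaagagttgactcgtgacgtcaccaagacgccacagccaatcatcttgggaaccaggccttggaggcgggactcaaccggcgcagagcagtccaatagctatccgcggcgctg
Orc1 (chr4:108579284-108579453, plus strand): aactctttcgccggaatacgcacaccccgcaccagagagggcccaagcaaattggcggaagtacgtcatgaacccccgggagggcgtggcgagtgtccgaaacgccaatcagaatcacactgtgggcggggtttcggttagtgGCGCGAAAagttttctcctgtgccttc
Mcm2 (chr6:88898781-88898950, minus strand): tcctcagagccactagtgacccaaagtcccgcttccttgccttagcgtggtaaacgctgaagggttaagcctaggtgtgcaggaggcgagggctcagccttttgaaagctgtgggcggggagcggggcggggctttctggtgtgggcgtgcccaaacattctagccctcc

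Counted from the start, with negative positions upstream, the Mcm6 matches began at -110, -106 and -47 and the Mcm5 matches at -153 and -149. The first pair in each gene overlaps. The Orc1 match began at -27, that of Cdc6 at -138, and those of Mcm7, both in 1 of its windows, at -165 and 17. The Mcm3 matches lay after the start, at 20 and 39. A CCAAT box, the letters bound by NF-Y, was searched on both strands as well. It was present in 7 of the 8 members, all but Cdc6, and in 37.4% of all windows (11096 of 27025 genes). The CCAAT box at 24 in Mcm7 shares 1 base with the E2F match there. The cell cycle homology element TTTGAA, known from promoters of genes active in G2 and mitosis, was also searched on both strands. It was found in 2 of the 8, Mcm2 and Cdc45, and in 17.9% of all windows (5466 of 27025 genes). Among 28 genes of a list of mitosis genes with windows, 19 held TTTGAA, 23 a CCAAT box and 2 an E2F match. In the lists nearest in function, described below, E2F matches were not rare. They lay in 7 of 20 other licensing and firing genes with windows and in 9 of 28 fork synthesis genes. A match describes the sequence and is not evidence of binding.

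**Figure D1:**
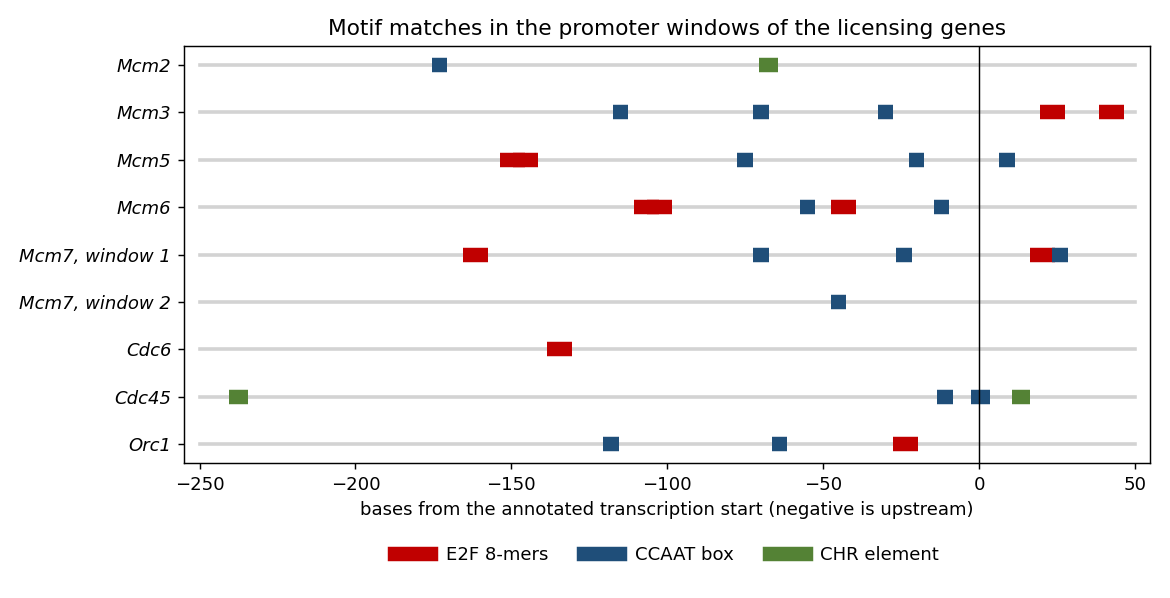
Positions of motif matches in the 300-base promoter windows, 1 line per window, in bases from the annotated start. E2F matches (red) lie in 6 of the 8 genes, CCAAT boxes (blue) in 7 and TTTGAA elements (green) in Mcm2 and Cdc45.

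Values below are intensities in array units after scaling to a common 75th percentile. A value at or under 105 units (the 40th percentile of all values) was treated as dim and set to 105 for log2 ratios, and folds of single genes use a stricter floor of 428 units (the 60th percentile). A fold against a value under 428 units is a lower bound and is written "at least". Between 22.8% and 24.3% of probe sets on each array lay below 0. Such levels are given with their sign. The ratio of 3′ to 5′ control probe sets, a sign of RNA integrity, was 0.798 to 0.944 for Gapdh and 0.938 to 1.11 for Actb over the 4 arrays. The levels of these controls differed more. On the progenitor, day 7, day 10 and TNF arrays the 3′ probe set of Gapdh had 21785, 19972, 94619 and 74092 units. That of Actb had 18689, 12532, 101211 and 73021 units. In progenitors 4 of 19 dendritic cell markers lay above 428 units, and 16, 17 and 18 of them did so on the day 7, day 10 and TNF arrays. Itgax (CD11c) had 105, 6188, 21075 and 29065 units in that order, so the labelled cell type had its markers.

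The group's signal came from 7 genes. Mcm2, Mcm3, Mcm4, Mcm5, Mcm7, Cdc6 and Cdc45 were all brightest in progenitors, lower at day 7 and lower again at day 10. At day 7, 7 of the 9 members were at least 2-fold lower than in progenitors and 0 were higher, where 11.9% of 5957 genes above 105 units were lower by that rule (9.72% at the floor of 428 units). Against the 3888 genes above 428 units in progenitors, the share lower was 10.8%. Of the 5957 genes, 796 were at least 2-fold higher at day 7. At day 10 the same 7 of 9 were at least 2-fold lower than at day 7, against a background of 8.44% (4.65% at the stricter floor, where 5 of 7 members were lower and Cdc6 and Cdc45 were not counted). Day 10 set against progenitors gave 7 of 9 again, against 16.8% of all genes, 14.8% at the stricter floor, and 17.0% of genes above 428 units in progenitors. In that comparison 0 members were at least 2-fold higher, while 1264 of 6198 genes were.

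The MCM subunits form the ring itself. Mcm5 had 15849 units in progenitors, 4069 at day 7, 932 at day 10 and 615 with TNF. It lay above 428 units on all 4 arrays, so its folds are measured, 3.90-fold lower at day 7 and 17.0-fold lower at day 10 than in progenitors. With the lower floor, the one used for log2 ratios, 30 of the 3888 genes, or 0.772%, had a lower day 10 to progenitor ratio than Mcm5. The dimmest of the 3888 genes in progenitors could not go below that ratio, so the floor partly sets this share. Mcm7, the other member above 428 units on all 4 arrays, had 7687, 1987, 662 and 604 units. Its level was 3.87-fold lower at day 7 and 11.6-fold lower at day 10. The floor plays no part in the folds of these 2 genes: 25.7% of the progenitor level was left at day 7 for Mcm5 and 25.9% for Mcm7, and 5.88% and 8.61% at day 10.

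Mcm4 had 4342, 1647, 405 and 497 units on the progenitor, day 7, day 10 and TNF arrays, 2.64-fold lower at day 7 and at least 10.1-fold lower at day 10. Mcm2 had 3142, 993, 210 and 193 units, 3.16-fold lower at day 7 and at least 7.34-fold lower at day 10. Mcm3 had 2964, 1023, 295 and -8 units by its brighter probe set, 2.90-fold lower at day 7 and at least 6.92-fold lower at day 10. All 3 were therefore still readable at day 7 and under 428 units at day 10. The second Mcm3 probe set lay at -278, -303, -343 and -358 units and gave no signal on any array. Mcm3 is the only member with 2 probe sets, so no other member's pattern has a second reading.

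At day 7 these 5 subunits were lower by similar ratios. At that time their log2 ratios to progenitors ran from -1.96 (Mcm5) to -1.40 (Mcm4), with an SD of 0.25 over the 5 genes. From day 7 to day 10 only Mcm5 (-2.13) and Mcm7 (-1.59) were measured on both arrays at the floor of 428 units. Over the 5 genes the ratios of this step ran from -2.24 to -1.59 with the floor of 105 units and from -2.13 to -1.21 with that of 428 units, so their likeness there depends on the floor. The scale of error available is the disagreement of the 2 brightest probe sets of one gene, whose log2 ratios differed with an SD of 0.62 for day 7 against progenitor (373 genes with both above 428 units) and 0.71 for day 10 against day 7 (370 genes). With 105 units as the minimum the SDs were 0.83 (671 genes) and 0.85 (663 genes). The day 7 ratio of each of the 5 genes was larger than these SDs, and the differences among the 5 at day 7 were within them. Both steps of Mcm5 and Mcm7 were also larger. This SD covers disagreement between probes and holds nothing of the spread between cultures.

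Mcm6 could not be read. Its single probe set had 146, 95, 119 and 10 units, under 428 units on every array and under 105 units on 2 of them, so no fold is given. Its log2 ratio of -0.47 at day 7 lies within the probe set error. The level shows only that this probe set gave little signal.

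The loading factor Cdc6 had the lowest day 7 ratio of the members. Cdc6, which helps load the ring and is destroyed and made anew each cycle, had 2654, 552, 46 and 31 units. At day 7 it was 4.81-fold lower than in progenitors, a log2 ratio of -2.27. With the floor of 105 units, 75 of the 3888 genes went below this ratio, and the dimmest of them in progenitors could not. At day 10 Cdc6 was at least 6.20-fold lower. Cdc45, which converts the ring into the active helicase, had 2319, 826, 39 and 531 units. It was 2.81-fold lower at day 7 and at least 5.42-fold lower at day 10, where it lay under 105 units like Cdc6. Such a bound is the progenitor level divided by 428 units and cannot be larger than that. No place among all genes is given for Cdc6 and Cdc45 at day 10, since the floor sets their ratios.

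Orc1, the member of the origin recognition complex that binds the DNA with its partners and whose protein is regulated through the cycle, stood apart from the loaders. It had 572, 406, 334 and 394 units, at least 1.34-fold lower at both day 7 and day 10 than in progenitors. Its log2 ratios of -0.50 and -0.78 were within the probe set SDs of 0.83 and 1.09. The probe set was above 428 units in progenitors alone, so no fold above 1.34 could be given for it. Orc1, Mcm6 and the second Mcm3 probe set are thus dim readings, and a low ratio there is not a measurement of constant RNA.

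**Figure D2:**
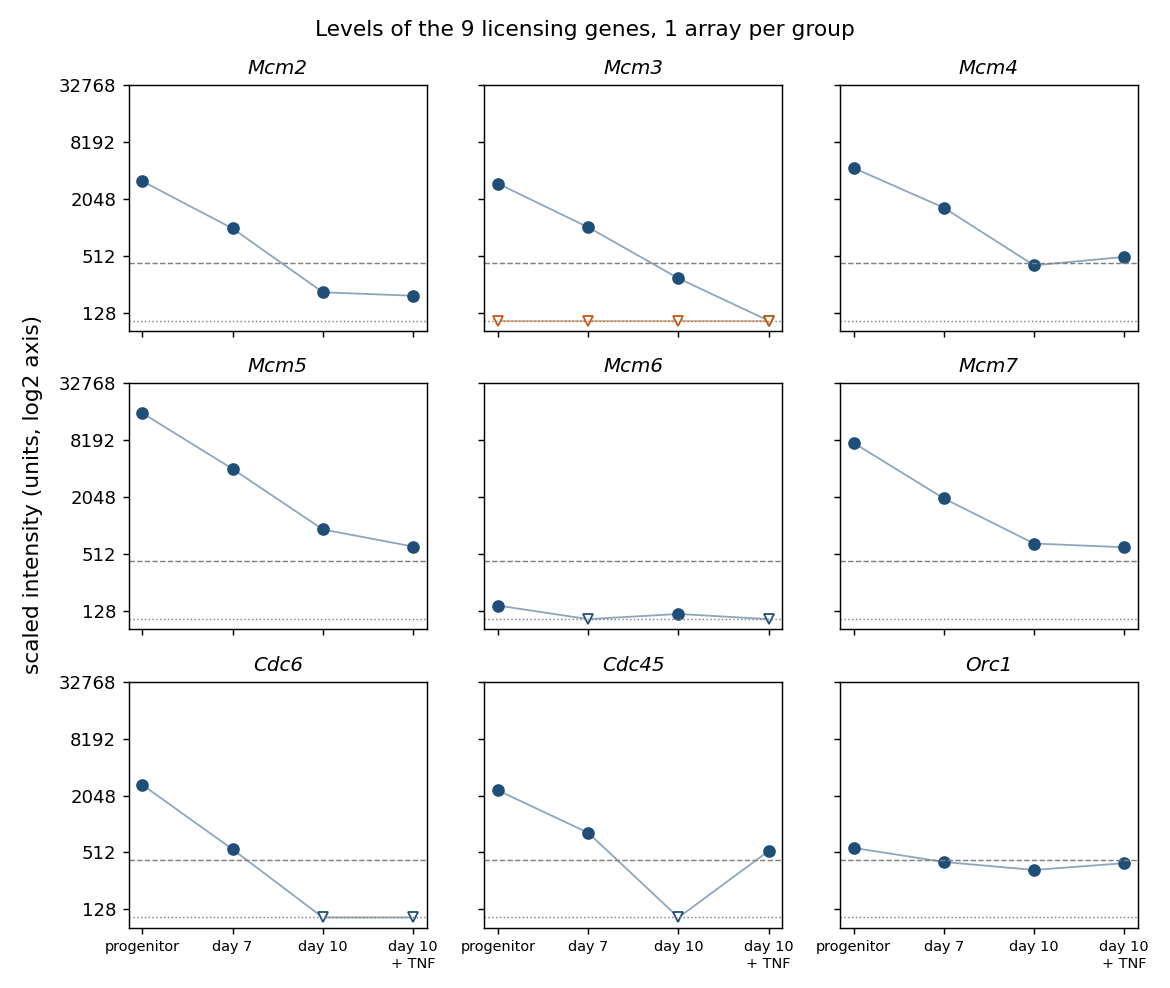
Scaled intensity of each licensing gene on the 4 arrays (log2 axis), 1 point per array and probe set. Open triangles mark values at or under 105 units drawn at that floor (dotted line), and the dashed line is 428 units. The 7 readable genes step down from progenitor to day 7 to day 10, while Mcm6, Orc1 and the second Mcm3 probe set (orange) stay near or under the dashed line.

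TNF for 16 hours left the group low. Of the 8 members brighter than 105 units with or without TNF, 1 was at least 2-fold lower with TNF and 1 at least 2-fold higher, against backgrounds of 8.76% lower and 8.84% higher (5.15% lower at the stricter floor, where 0 members were lower). The median log2 ratio was -0.13, and that of all genes -0.04. Mcm7 differed by 1.10-fold and Mcm5 was 1.52-fold lower (932 and 615 units), a log2 ratio of -0.60 against a probe set SD of 0.56. Mcm4 was at least 1.16-fold higher, at 405 and 497 units. The gene counted as lower was Mcm3 (295 and -8 units), with both values under 428 units. The gene counted as higher was Cdc45, from 39 to 531 units, at least 1.24-fold. With TNF Cdc45 was at 22.9% of its progenitor level. Both counts rest on values near or under 428 units, and at the floor of 428 units, with 4 members left, 0 were lower and 0 higher.

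The comparisons share arrays: the day 7 array enters both of its steps with opposite sign, and the day 10 array enters the TNF comparison. Their ratios are therefore given side by side and not set against each other. Added bacterial control transcripts, read by 9 probe sets, were brighter at day 10 than at day 7 by a median of 1.5 on the log2 scale (range 1.2 to 1.77), the opposite sign to the licensing genes. When the arrays were scaled to these controls, a choice made after seeing the data, the members' median for day 10 against day 7 went from -2.02 to -3.27 and that of all genes from 0.06 to -1.34. Relative to all genes the members lay at -2.09 and -1.94. With the floor at 428 units and no spike scaling the members' median for this step was -1.26, and for day 10 against progenitors -2.83.

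Other genes of origin licensing and firing came from a list of 27 genes, of which 14 were read. At day 7, 6 of the 11 above 105 units were at least 2-fold lower and 0 higher (median -1.13); at day 10 against progenitors 9 of 12 were lower and 0 higher (median -1.80). The shares of all genes lower were 11.9% and 16.8%, and 796 of 5957 and 1264 of 6198 genes were at least 2-fold higher. These values hold for the day 7 and day 10 counts of every list below. Timeless, which holds the fork together with Tipin, had 1377, -59, -99 and -91 units, at least 3.22-fold lower at day 7. Tipin itself was at 1575, 365, 183 and 126 units, at least 3.68-fold lower. Topbp1, which brings Cdc45 to origins, had 2148, 894, 299 and 310 units and was 2.40-fold lower at day 7 and at least 5.02-fold lower at day 10. Mcm10, which acts with the active helicase, had 817, 364, 138 and 87 units.

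Within the origin recognition complex, subunits differed. Orc6 had 2337, 951, 541 and 626 units, 2.46-fold lower at day 7 and 4.32-fold lower at day 10 than in progenitors. Orc4 had 1614, 1442, 934 and 1120 units, 1.12-fold and 1.73-fold lower at these times, and Orc5 had 568, 381, 668 and 430 units. Cdt1, the partner of Cdc6 in loading, had 5863, 4208, 2104 and 2445 units, 1.39-fold lower at day 7 and 2.79-fold lower at day 10, by the brighter of its 2 probe sets. The other had 45, 183, -9 and -60 units. Its ratio at day 7 (log2 -0.48) was smaller than the probe set SD, unlike that of Cdc6. Gmnn, which encodes the Cdt1 inhibitor geminin, and Dbf4, the activating subunit of the Cdc7 kinase, lay below 0 on all 4 arrays. Orc4, Orc5, Cdt1, Gmnn and Dbf4 were chosen after their values were seen.

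Genes that work at the fork came from a list of 31, of which 27 were read. Of 23 fork synthesis genes above 105 units, 11 were at least 2-fold lower and 1 higher at day 7 (median -0.97), and 16 were lower and 1 higher at day 10 against progenitors (median -1.62). The median of the licensing genes was -1.53 and -3.54 in the same comparisons; the difference between the lists was not tested. Prim1, the catalytic primase subunit, had 1223, 417, -4 and 65 units, and Rfc4, a clamp loader subunit, 2137, 604, 61 and 325. Pcna, the sliding clamp, had 11641, 6898, 3418 and 3043 units, only 1.69-fold lower at day 7 and 3.41-fold lower at day 10. Pold4, an accessory subunit of polymerase delta chosen after its values were seen, was 2.66-fold higher at day 10 than in progenitors, at 4483 and 1685 units.

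Nucleotide supply genes gave 4 of 6 lower and 0 higher in each of these comparisons (medians -1.76 and -2.13). The ribonucleotide reductase genes Rrm1 (7260, 2062, 707 and 325 units) and Rrm2 (5354, 1648, 562 and 358 units) were 10.3-fold and 9.52-fold lower at day 10 than in progenitors. These measured folds lie beside the 11.6-fold of Mcm7 and the 17.0-fold of Mcm5. Mitosis genes were lower in 16 of 25 cases at day 7 (0 higher, median -1.23) and in 24 of 26 at day 10 against progenitors (0 higher, median -3.41). Mki67, a marker of cycling cells, had 7899, 4199, 614 and 657 units. In bulk RNA, fewer cycling cells and less RNA per cell cannot be told apart.

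The regulators upstream of licensing were read in part. Of 10 E2F, DP, Rb and Myc genes above 105 units, 2 were at least 2-fold lower and 0 higher at day 7, and 4 lower and 0 higher at day 10 against progenitors (medians -0.35 and -0.38). Over all genes the shares lower were 11.9% and 16.8%, so 2 of 10 at day 7 is near the background. Tfdp1, the DP1 partner of E2F factors, had 11987, 3477, 1605 and 1478 units, 3.45-fold lower at day 7 and 7.47-fold lower at day 10. Its 2 other probe sets went the same way, at 2696, 1121, 482 and 271 units and at 797, 316, 85 and 206 units. The suffixes in the names of these 3 probe sets mark designs that may be less specific. E2f8, an atypical E2F that represses transcription, had 2787, 934, 88 and 27 units, and its second probe set 2179, 476, 230 and 182. Both E2f8 probe sets have such suffixes as well. Rbl1, the pocket protein p107, had 1414, 1098, 550 and 492 units, and Rb1 had 611, 870, 607 and 698. E2f1, the activating E2F and chosen after its values were seen, had 457 units in progenitors and 360, 270 and -35 on the later arrays, close to or under 428 units throughout.

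Among G1/S cyclins and inhibitors, 10 of 16 were lower and 1 higher at day 7 (median -1.09), and 8 of 17 lower and 2 higher at day 10 against progenitors (median -0.48). Ccne1, the cyclin that drives S phase entry, had 2575, 578, 579 and -1703 units, and the phosphatase gene Cdc25a 2412, 717, 601 and 668. The Cdc25a values are from the brighter of its 2 probe sets. The other, at -9, -45, -165 and -63 units, gave no signal, and Ccne1 had 1 probe set. By these readings Ccne1 and Cdc25a were near their day 10 level by day 7, whereas the 7 readable licensing genes were lower again at day 10. This difference was not tested. In the other direction, Cdkn1a, which encodes the Cdk inhibitor p21, had 1916, 9496, 13085 and 22384 units, 4.96-fold higher at day 7 and 6.83-fold higher at day 10 than in progenitors. Its second probe set had 569, 2547, 11406 and 24026 units. Ccnd2, a G1 cyclin, had the largest absolute log2 ratio under TNF among the 6 replication and cell cycle lists (4.41), from 29 to 2226 units, at least 5.20-fold higher, while Mcm5 and Mcm7 stayed at or below their day 10 levels.

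**Figure D3:**
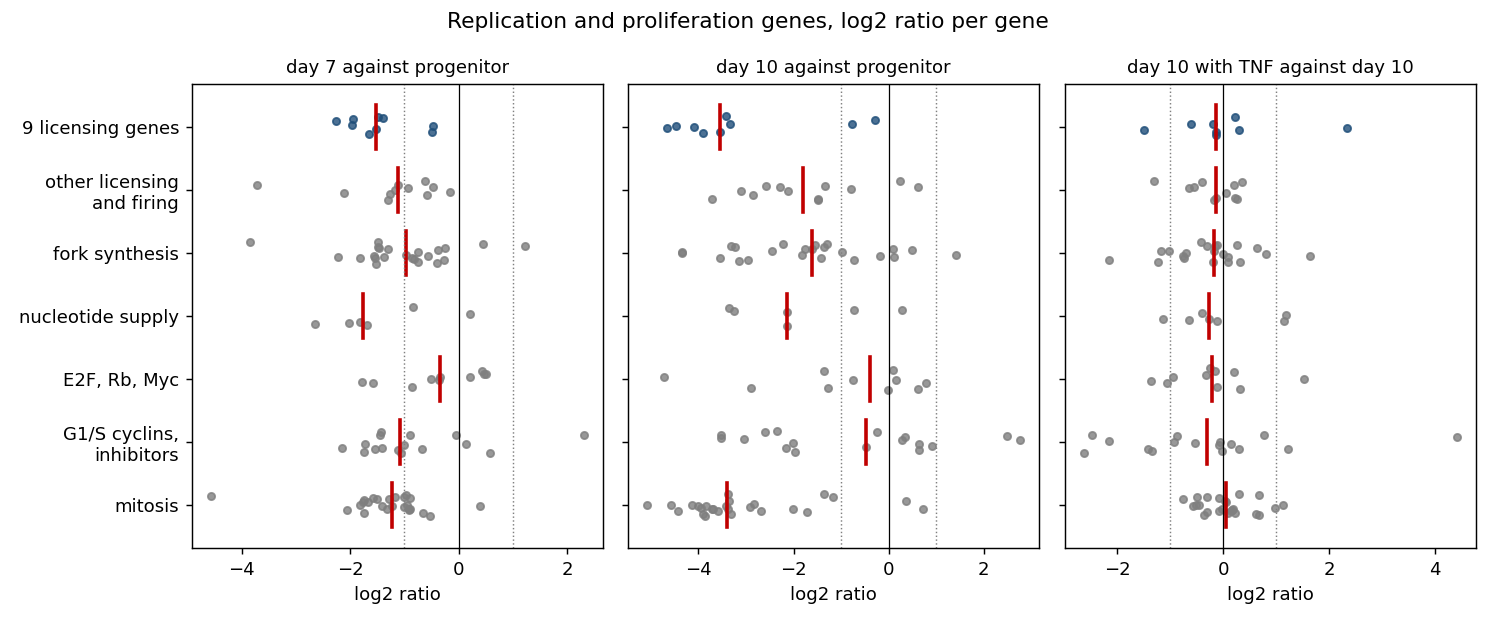
Log2 ratio of each gene that passed 105 units on either array, by list, for 3 comparisons; 1 point per gene, red bars are list medians and dotted lines mark 2-fold. The licensing genes (blue) have medians of -1.53, -3.54 and -0.13, and all genes -0.04, 0.07 and -0.04.

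The genes whose pattern was most like the licensing genes were found from log2 levels over the 4 arrays, floored at 105 units and centred on each gene's mean. The measure is the root-mean-square difference from the members' median profile, over 4729 other genes that passed 428 units on any array. The 8 nearest were Aurka (0.05), a mitotic kinase; Prim1 (0.07); Cks1b (0.07), a Cdk-binding subunit; Rbm38 (0.08), an RNA-binding protein; Ncaph (0.10), a condensin subunit; Cdc20 (0.10), an activator of the anaphase-promoting complex; Kif11 (0.10), a spindle motor; and Dtl (0.11), an adaptor of the ubiquitin ligase that marks Cdt1 for destruction. Aurka had 2655, 837, 221 and 210 units, Cks1b 7838, 2702, 681 and 647, and Cdc20 10903, 3258, 725 and 742. Among the members Mcm7 (0.15) and Mcm2 (0.16) lay nearest to their own median and Orc1 (1.29) and Mcm6 (1.41) farthest. Values of Prim1, Kif11 and Dtl were under 105 units both at day 10 and with TNF, and that of Ncaph with TNF. These values were set to the floor, which flattens the profiles of these genes.

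Matches to the E2F motif were also counted over the arrays' genes. Of 567 genes above 428 units in progenitors that were at least 2-fold lower at day 10 and had a promoter window, 10.8% held a match, or 10.2% with the licensing genes left out. The share was 4.68% of the 2203 genes within 2-fold and 4.47% of the 447 at least 2-fold higher. Over all 3217 genes above 428 units in progenitors with a window it was 5.72%, higher than the 2.26% of all windows. Among the members, Mcm2 and Cdc45 had no match and were lower like the others, and Mcm6 and Orc1 had one and were read dimly. These shares are descriptions with no test.

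Some markers of other cells were also lower on the later arrays. The summed level of 15 granulocyte markers was 232459 units in progenitors, 135427 at day 7, 161509 at day 10 and 19397 with TNF, with 14, 15, 11 and 7 of them above 428 units. Of the 15, 5 were at least 2-fold lower and 1 higher at day 7, and 7 lower and 2 higher at day 10 against progenitors. Mpo and Elane, enzymes of granulocyte precursors, were lower, Mpo with 26660, 5381, 200 and -235 units and Elane with 27938, 6501, 999 and 636. S100a8, S100a9 and Ngp, made later in granulocyte maturation, did not go down from progenitors to day 10. S100a8 had 27286, 23848, 57731 and 7537 units, S100a9 27940, 20977, 28322 and 6290, and Ngp 19177, 17864, 27554 and 831. Macrophage markers summed to 14398, 78666, 163680 and 122549 units (14 genes, 8, 11, 11 and 11 above 428 units). Of the 14, 3 were at least 2-fold lower and 9 higher at day 7, with the same counts at day 10 against progenitors. Mmp12 alone had 118, 17697, 61180 and 49379 units. Progenitor markers summed to 16582, 18858, 21972 and 11317 units (9 genes, 5 above 428 units on each array), with Kit at 647, 1308, 1362 and 1624 and Flt3 at 1972, 805, 517 and 614. Cd93 gave most of this sum at day 7 and day 10, with 3521, 13835, 17616 and 6773 units. Myb, a transcription factor of blood progenitors, had 8955, 1104, 248 and 60 units and was at least 20.9-fold lower at day 10 than in progenitors, so it was lower along with the licensing genes. Markers of mast cells and basophils (7 genes; 3, 2, 3 and 1 above 428 units) summed to 4671, 1905, 1855 and 1688 units, highest in progenitors like the licensing genes. Of 5 such markers above 105 units, 3 were at least 2-fold lower and 1 higher at day 10 against progenitors. Cpa3 was 3.76-fold and Mcpt8 3.34-fold lower, while Cma1 had 91, 438, 675 and 641 units. Markers of erythroid cells (6 genes; 3, 3, 2 and 3 above 428 units) summed to 11757, 6638, 5233 and 6815 units. Tfrc gave most of this sum, with 9875, 4736, 3566 and 4727 units. Of 3 erythroid markers above 105 units, 2 were at least 2-fold lower and 0 higher at day 10 against progenitors. Klf1 was not lower, at 1016, 1292, 1237 and 1506 units. Markers of B cells (8 genes; 2, 3, 4 and 5 above 428 units) summed to 4610, 4875, 6334 and 6809 units, and those of T and NK cells (8 genes; 1, 0, 0 and 0 above 428 units) to 911, 629, 225 and 651. The part of these cells in the licensing result was not tested.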

How the data were processed

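Total RNA was measured on 4 arrays, 1 per group. The authors deposited linear intensities per probe set. The image software and detection calls were not given in the sources used here. Deposited intensities had already been matched in brightness, with a mean of the central 96% of probe sets between 998.9 and 999.2 on each array. Of 12654 probe sets, 10298 had 1 gene symbol through the platform annotation, 363 had several and 1993 had none; only the first kind was used, without 66 control probe sets, and symbols were updated by Entrez gene number. Arrays were brought to 1 shared 75th percentile (factors 0.962 to 1.05), and values were raised to a floor of 105 units and converted to log2. For each gene the probe set of highest mean was used, giving 8220 genes, 1609 of them with more than 1. No test was possible with 1 array per group, and the number of arrays limits the precision.

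The members and gene lists were chosen with earlier results of these data known. Named genes are all members; in each other list the 4 largest absolute log2 ratios for day 7 and for day 10 against progenitor, above 428 units on 1 of the arrays; the 8 genes of most similar pattern; the 4 brightest genes of each marker list; and Mpo, Itgax, H2-Aa, Kit, Flt3, Mki67 and Pcna. Not every gene so chosen is described. Calculations used Python 3.11.15, numpy 2.4.6, pandas 2.3.3 and matplotlib 3.10.9, and the counting of calls was tested on simulated data. That simulation set large changes in bright genes with little noise, so it does not cover calls on dim values. Promoter sequences are from RefSeq.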

Additional observations from a re-analysis of the deposited data

How the results depend on the processing

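The 7 licensing genes counted as lower at day 7, at day 10 against day 7 and at day 10 against progenitors were recounted with the floor at the 60th percentile, after quantile normalization, in the values as deposited, with the median over a gene's probe sets and with a 3-fold rule. These counts moved by more than 1.5 times in 1 case, 4 in place of 7 at day 7 with the 3-fold rule. The median log2 ratio became -3.27 for day 10 against day 7 and -4.68 for day 10 against progenitors when the arrays were scaled to the spiked controls. With the floor at the 60th percentile these medians were -1.26 in place of -2.02 and -2.83 in place of -3.54, and under the other settings they lay between -2.15 and -2.02 and between -3.66 and -3.54. For TNF against day 10 the 1 lower gene became 0 at the 60th percentile floor, with the median over probe sets, with the 3-fold rule and with spike scaling. The 1 higher gene, Cdc45, became 0 at the 60th percentile floor. Counts lower at day 10 against day 7 at the stricter floor were 2 in place of 4 for other licensing genes, 3 in place of 7 for fork genes and 10 in place of 18 for mitosis genes, whose median became -0.90 in place of -2.11. Of the other list counts, medians and probe set levels, 322 stayed close to the main value and 22 did not. Medians near 0 did change sign: that of the licensing genes with TNF went from -0.13 to 0.04 at the 60th percentile floor and to 0.38 with spike scaling, that of other licensing genes with TNF from -0.13 to 0.21 at that floor, and that of G1/S genes for day 10 against day 7 from 0.07 to -0.06 in the values as deposited. No paired analysis was possible because each group has 1 array. Signal limits the rest: Mcm6 and Orc1 were too dim for folds of this size to be seen, and the day 10 levels of Mcm2, Mcm3, Mcm4, Cdc6 and Cdc45 are bounds.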
